A study of Mus musculus with 3 samples.

Results

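The genes described here serve antigen presentation and the interferon response, and comprise the chains of the major histocompatibility complex (MHC), the proteins that load peptides onto them, the interferon receptors with their kinases and transcription factors, interferon-induced genes and sensors of foreign molecules. They were chosen by name, as a list of 44 mouse symbols, and 43 of them were among the 22698 Ensembl genes of the files. *Nlrc5*, the class I transactivator, was not analysed here. The RNA was sequenced from melan-a cells, an immortalized mouse melanocyte line of C57BL/6J background, which the labels trace to mice lacking Ink4a-ARF. There was 1 group of 3 bioreplicates, labelled 1, 3 and 4, and the labels name no interferon treatment. The medium of all samples held 10% fetal bovine serum, 200 nM of the phorbol ester 12-O-tetradecanoylphorbol 13-acetate and 200 pM cholera toxin, so every value below is a basal level in the presence of both agents. Levels are FPKM, which relates the reads of a gene to its length and to the library size, scaled by the authors between libraries and rounded to 2 decimals. The steps of low values gave scaled library sizes of 53900000, 47000000 and 66400000 reads for replicates 1, 3 and 4. With 1 condition the spread between replicates is the only error available, and part of it may be technical. The label was checked against 7 melanocyte markers, which all lay at 22.15 FPKM or more, led by the pigment cell genes *Tyrp1* (3144 FPKM), *Dct* (1412 FPKM) and *Mlana* (578 FPKM).

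MHC class I molecules are found on nearly all nucleated cells and show peptides from inside the cell to CD8+ T cells. They consist of a heavy chain, the light chain B2M and a peptide that is cut by the proteasome, pumped into the endoplasmic reticulum by the TAP transporter and fitted there by tapasin. MHC class II molecules are typical of professional antigen-presenting cells and depend on the transactivator CIITA. Type I interferon binds IFNAR1 and IFNAR2, interferon-γ binds IFNGR1 and IFNGR2, and both signal through JAK kinases to STAT and IRF factors, which induce the interferon-stimulated genes.

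Of the 43 measured members, 29 (67.4%) were at 1 FPKM or more in all 3 replicates, compared with 44.1% of all genes in the files and 44.8% of the protein-coding ones. A mean of 10 FPKM or more was reached by 11 of the 43 members, a share close to the 23.6% of all genes. The median of the members was 6.08 FPKM and that of all genes 0.277 FPKM. Of all genes, 31.4% were at 0 in all replicates, which lowers their median. Over the 10011 genes at 1 FPKM or more in all replicates the median was 11.15 FPKM. The groups of members differed. Every class I chain (4 of 4), peptide loading gene (5 of 5), interferon receptor (4 of 4) and receptor kinase (3 of 3) was at 1 FPKM or more in all replicates. None of the 3 class II genes was, and the interferon-induced genes were divided, with 5 of 12 (41.7%), close to the share of all genes. Of the transcription factors 5 of 7 and of the sensors 3 of 4 were.

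**Figure D1:**
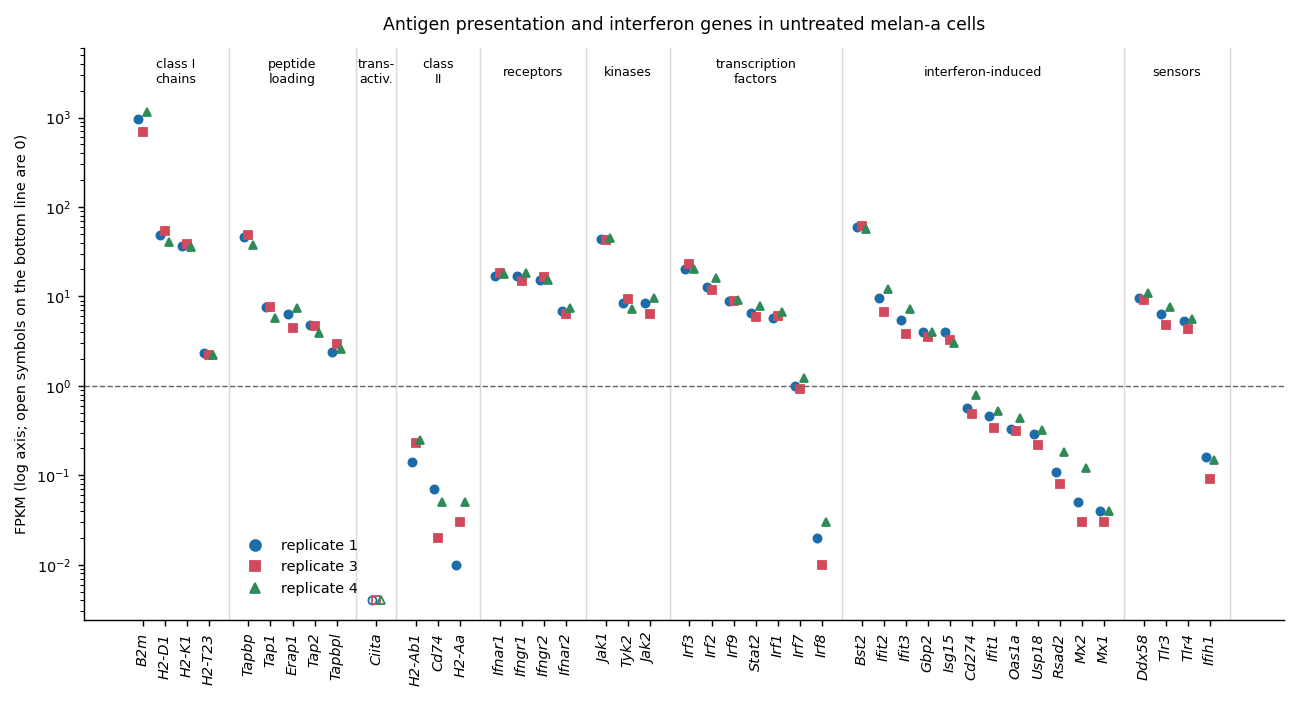
FPKM of the 43 measured members in replicates 1, 3 and 4 on a log axis, grouped by role and ordered by mean within each group. The class I chains, receptors and kinases all lie above the dashed line at 1 FPKM, the class II genes lie below it, and Ciita is drawn with open symbols because it was listed at 0.

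**Figure D2:**
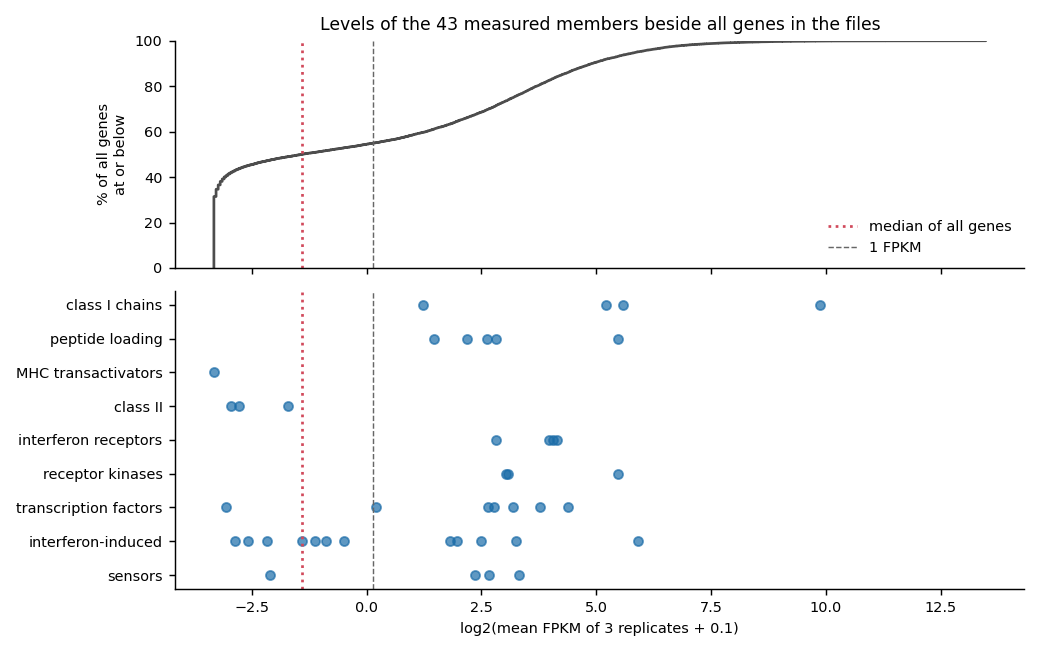
The upper panel gives the percent of all 22698 genes at or below each level, as log2(mean FPKM + 0.1), and each point of the lower panel is the mean of a member, by role. The dotted line marks the median of all genes and the dashed line 1 FPKM, and 7 of the 12 interferon-induced genes lie to the left of the dashed line.

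*B2m*, which encodes the light chain shared by all class I molecules, was the highest member. In replicates 1, 3 and 4 it had 956.92, 695.27 and 1166.43 FPKM, a mean of 939 ± 236 FPKM (SD, n = 3). It ranked 30 among all genes, and its lowest replicate was above every value of any other member. *B2m* lies at chr2:121973422-121978819 of mm9, and none of the 50-base windows of its exons occurs elsewhere in the genome.

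The classical heavy chains were far lower than the light chain. *H2-D1* had 48.96, 53.92 and 40.67 FPKM in replicates 1, 3 and 4 (mean 47.9 ± 6.7), and *H2-K1* had 36.90, 38.65 and 35.25 FPKM (mean 36.9 ± 1.7). *H2-D1* was higher than *H2-K1* in 3 of 3 replicates, by 1.3 times on the means, and the ranges of the 2 genes did not overlap. Both lie in the MHC on chromosome 17, *H2-K1* at chr17:34132962-34137278 and *H2-D1* at chr17:35399675-35404444. Of their 50-base exon windows, 17.0% for *H2-K1* and 14.6% for *H2-D1* also occur elsewhere in mm9. Reads that lie wholly within such windows cannot be assigned by sequence, although longer reads may be. The ratio of the 2 genes is therefore uncertain. How the authors' counting treated reads with more than 1 possible origin was not given in the sources used here.

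*H2-T23*, which encodes the nonclassical class I chain Qa-1, had 2.31, 2.21 and 2.21 FPKM in replicates 1, 3 and 4. It was steady across the replicates and 16.5 times lower than *H2-K1*, but 32.8% of its windows occur elsewhere in the genome. Of the other class I genes listed, 3 of 13 measured were at 1 FPKM or more in all replicates, namely *H2-T22* (mean 17.7 FPKM), *Hfe* (8.40 FPKM), whose product acts in iron handling, and *H2-Q4* (5.55 FPKM). The light chain exceeded the sum of *H2-K1*, *H2-D1* and *H2-T23* by 10.85, 7.34 and 14.9 times in replicates 1, 3 and 4. Against all 13 H2 class I genes measured the ratio was 8.66 ± 2.99 (SD, n = 3), and the light chain was higher in 3 of 3 replicates. Windows found elsewhere in the genome were not counted for class I genes outside the members, such as *H2-T22* and *H2-Q4*. As the heavy chain members hold such windows and *B2m* holds none, the size of these ratios is uncertain.

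All 5 peptide loading genes were expressed, over a range of 2.65 to 44.6 FPKM. *Tapbp*, which encodes tapasin, the bridge between the class I chain and the transporter, stood apart with 46.62, 49.21 and 37.95 FPKM in replicates 1, 3 and 4. Both transporter subunits were lower. *Tap1* had 7.59, 7.67 and 5.70 FPKM and *Tap2* had 4.74, 4.61 and 3.93 FPKM, so *Tap1* exceeded *Tap2* in 3 of 3 replicates by 1.58 times on the means. *Tapbp* exceeded *Tap1* by 6.14, 6.42 and 6.66 times, a ratio that varied little between replicates. *Erap1*, an aminopeptidase that trims peptides in the endoplasmic reticulum, had 6.38, 4.41 and 7.44 FPKM, and its range overlapped that of *Tap1*. *Tapbpl*, which encodes the tapasin-related peptide editor, had 2.42, 2.95 and 2.58 FPKM and was 16.8 times below *Tapbp*.

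The class II genes were close to the limit of detection. *Ciita*, the transactivator of class II genes at chr16:10480237-10527657 of mm9, was listed at 0 in all 3 replicates, as were 31.4% of all genes. The symbol has 2 gene identifiers, and this value is that of the model at this position. At the depth of each library, 3 reads on its 6208 exon bases would give 0.0090, 0.0103 and 0.0073 FPKM, about the smallest step the files can hold. *H2-Ab1*, which encodes the class II β chain, had 0.14, 0.23 and 0.25 FPKM in replicates 1, 3 and 4, above the value of 3 reads in 3 of 3 replicates. *H2-Aa*, the α chain, had 0.01, 0.03 and 0.05 FPKM, above 3 reads in 1 of 3 replicates. In replicate 3 the gap (0.03 against 0.0321 FPKM) is within the rounding to 2 decimals, so this call is uncertain. *Cd74*, the invariant chain that guides class II molecules to endosomes, had 0.07, 0.02 and 0.05 FPKM, above 3 reads in 2 of 3. The summed *H2-K1* and *H2-D1* level was 572, 356 and 253 times that of *H2-Aa* and *H2-Ab1*. The denominators were 0.15, 0.26 and 0.30 FPKM, so this ratio rests on few reads. In such bulk samples a low level in every cell and a higher level in a few cells cannot be told apart.

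Markers of antigen-presenting cells were measured beside the class II genes. Of 8 macrophage and dendritic cell markers, 4 were at 0 in all replicates, compared with 31.4% of all genes. They included *Ptprc*, the pan-leukocyte CD45 gene. At 1 FPKM or more in all replicates was 1 of the 8, compared with 44.1% of all genes. It was *Lyz2* (mean 12.9 FPKM), which encodes lysozyme. The next highest was *Cd68*, a lysosomal protein gene, with a mean of 1.19 FPKM. The summed level of the 8 markers was 14.0, 13.2 and 15.03 FPKM in replicates 1, 3 and 4. None of 6 lymphocyte and none of 5 keratinocyte markers reached 1 FPKM in all replicates, and of 5 fibroblast markers *Col1a1* did (mean 1.54 FPKM). The part of other cell types in the class II values was not tested.

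Both interferon receptors were complete at the RNA level. *Ifnar1* had 17.13, 18.35 and 17.66 FPKM in replicates 1, 3 and 4 (mean 17.7 ± 0.6), and its partner *Ifnar2* had 6.95, 6.37 and 7.46 FPKM (mean 6.93 ± 0.55). *Ifnar1* was higher in 3 of 3 replicates, by 2.56 times on the means. Exons of the neighbouring gene on the same strand cover 14.6% of the exon bases of *Ifnar2*, and reads there may not have been counted. For the interferon-γ receptor, *Ifngr1* had 16.73, 15.02 and 18.04 FPKM and *Ifngr2* had 15.44, 16.47 and 15.13 FPKM. These 2 chains were not distinguishable, since *Ifngr1* was higher in 2 of 3 replicates and the ranges overlapped. *Ifngr2*, *Ifnar1* and *Ifnar2* lie within chr16:91373028-91565414 of mm9.

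Among the kinases, *Jak1*, which serves both receptors, was the highest, with 44.32, 43.02 and 45.36 FPKM in replicates 1, 3 and 4 and a coefficient of variation of 2.65%. *Tyk2*, which pairs with IFNAR1, had 8.37, 9.35 and 7.29 FPKM, and *Jak2*, which pairs with IFNGR2, had 8.40, 6.32 and 9.61 FPKM. *Jak1* exceeded *Jak2* by 5.45 times and *Tyk2* by 5.31 times on the means, in 3 of 3 replicates each, whereas the ranges of *Tyk2* and *Jak2* overlapped.

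Of the 7 transcription factors, 5 were at 1 FPKM or more in all replicates. *Irf3*, which is activated by phosphorylation downstream of nucleic acid sensors, was the highest, with 20, 22.76 and 20.02 FPKM in replicates 1, 3 and 4. *Irf2*, mainly a repressor of interferon-responsive promoters, followed with 12.69, 11.81 and 16.25 FPKM and did not overlap with it. *Irf1*, the activator that binds similar sites and is itself induced by interferon-γ, had 5.77, 6.09 and 6.62 FPKM and was 2.20 times lower than *Irf2* in the means. *Irf9* had 9.0, 8.82 and 9.07 FPKM and *Stat2* had 6.5, 5.95 and 7.77 FPKM. These subunits of the complex that binds interferon-stimulated response elements differed by 1.33 times on the means, with *Irf9* higher in 3 of 3 replicates.

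The remaining factors were lower. *Irf7*, which amplifies the type I interferon response and is itself interferon-induced, had 1.0, 0.92 and 1.22 FPKM and was 20 times lower than *Irf3*. *Irf8*, a factor of myeloid cells, had 0.02, 0.01 and 0.03 FPKM. These listed values lay above that of 3 reads in each replicate. In replicate 3 the margin (0.01 against 0.00905 FPKM) is within the rounding to 2 decimals, so this call is uncertain. *Irf8* had the lowest mean of the members that were above 0.

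The 12 interferon-induced members covered a wide range, from a mean of 0.037 FPKM for *Mx1* to 59.6 FPKM for *Bst2*, with a median of 0.525 FPKM. *Bst2*, which encodes tetherin, a protein that holds budding viruses at the cell surface, had 60.19, 61.49 and 57.11 FPKM in replicates 1, 3 and 4. It was the second highest member, with every replicate above those of *H2-D1*. *Isg15*, a ubiquitin-like modifier, had 3.95, 3.27 and 3.0 FPKM, and *Gbp2*, a GTPase induced by interferon-γ, had 3.97, 3.48 and 4.03 FPKM. Their ranges overlapped.

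The *Ifit* genes encode related RNA-binding proteins and lie near each other on chromosome 19 between 34625184 and 34724499 of mm9. They differed widely. *Ifit2* had 9.53, 6.65 and 12.04 FPKM in replicates 1, 3 and 4, *Ifit3* had 5.47, 3.83 and 7.23 FPKM, and *Ifit1* had 0.46, 0.34 and 0.52 FPKM. *Ifit2* exceeded *Ifit1* by 20.7, 19.6 and 23.1 times, and *Ifit3* exceeded it by 11.9, 11.3 and 13.9 times. All 3 genes were highest in replicate 4 and lowest in replicate 3. The level of *Ifit3* is uncertain because 52.6% of its exon windows occur elsewhere in the genome, compared with 2.47% for *Ifit2* and 8.72% for *Ifit1*.

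The remaining interferon-induced members were, like *Ifit1*, below 1 FPKM in every replicate. *Cd274*, which encodes the checkpoint ligand PD-L1, had 0.57, 0.48 and 0.78 FPKM, *Oas1a*, an oligoadenylate synthetase, had 0.33, 0.31 and 0.44 FPKM, and *Usp18*, which removes ISG15 from proteins and restrains IFNAR signalling, had 0.29, 0.22 and 0.32 FPKM. For *Oas1a* 62.4% of the exon windows occur elsewhere. *Rsad2*, which encodes the antiviral enzyme viperin, had 0.11, 0.08 and 0.18 FPKM. The *Mx* genes encode antiviral GTPases and were lowest, with 0.04, 0.03 and 0.04 FPKM for *Mx1* and 0.05, 0.03 and 0.12 FPKM for *Mx2*. *Mx1* and *Mx2* were not distinguishable, being equal in replicate 3. The listed values of these genes and *Ifit1* were nonetheless above that of 3 reads in 3 of 3 replicates. For *Mx2* the margin in replicate 3 (0.03 against 0.0264 FPKM) is within the rounding to 2 decimals. As background, *Mx1* of C57BL/6J carries a deletion of coding exons.

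Promoter sequences of members with different levels are shown because they carry the element through which type I interferon acts. The core of the interferon-stimulated response element (ISRE) was searched as GAAA, any 2 bases and GAAA on both strands of RefSeq windows from 250 bases before to 50 after the start (build GRCm38.p6). A window was found for 34 of the 44 symbols, and 14 of these (41.2%) held the core, compared with 3.99% of the genes in the table. Capitals mark the core or its reverse complement, overlapping copies joined, in the 170 bases before the start, written 5′ to 3′ in the direction of transcription. The first 4 genes were at 1 FPKM or more in all replicates and the last 3 were below it.
B2m, chr2:122147517-122147686, plus strand: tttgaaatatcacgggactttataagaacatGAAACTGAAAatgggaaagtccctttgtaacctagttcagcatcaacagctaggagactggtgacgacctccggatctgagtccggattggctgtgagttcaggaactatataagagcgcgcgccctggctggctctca
Bst2, chr8:71537473-71537642, minus strand: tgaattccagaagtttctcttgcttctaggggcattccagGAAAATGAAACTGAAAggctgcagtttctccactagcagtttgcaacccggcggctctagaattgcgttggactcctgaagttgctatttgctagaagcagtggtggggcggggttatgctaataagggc
Ifit3, chr19:34583359-34583528, plus strand: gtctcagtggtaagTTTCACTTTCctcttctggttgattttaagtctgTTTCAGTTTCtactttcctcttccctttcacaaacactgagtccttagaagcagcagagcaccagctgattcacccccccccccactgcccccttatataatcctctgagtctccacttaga
Isg15, chr4:156200819-156200988, minus strand: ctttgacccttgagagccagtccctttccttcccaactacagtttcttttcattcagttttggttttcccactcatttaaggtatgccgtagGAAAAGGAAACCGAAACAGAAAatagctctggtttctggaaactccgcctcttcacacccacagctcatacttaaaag
Ifit1, chr19:34640719-34640888, plus strand: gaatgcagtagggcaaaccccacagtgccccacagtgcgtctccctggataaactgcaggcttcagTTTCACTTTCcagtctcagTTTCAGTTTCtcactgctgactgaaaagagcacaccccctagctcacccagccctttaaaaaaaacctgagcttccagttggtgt
Oas1a, chr5:120907526-120907695, minus strand: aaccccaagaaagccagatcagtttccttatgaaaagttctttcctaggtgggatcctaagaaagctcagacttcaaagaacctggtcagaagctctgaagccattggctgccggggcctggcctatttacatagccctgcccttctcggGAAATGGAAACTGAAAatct
Rsad2, chr12:26456453-26456622, minus strand: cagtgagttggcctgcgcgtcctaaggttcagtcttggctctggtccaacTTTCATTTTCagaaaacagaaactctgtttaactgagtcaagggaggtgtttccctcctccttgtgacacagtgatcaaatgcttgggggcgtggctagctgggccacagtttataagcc
Copies of the core thus stood before genes at 939 FPKM (*B2m*), 59.6 FPKM (*Bst2*) and 3.41 FPKM (*Isg15*), and equally before *Ifit1* at 0.44 FPKM, *Oas1a* at 0.36 FPKM and *Rsad2* at 0.123 FPKM. In *Isg15* 3 overlapping copies span positions -78 to -57, in *Bst2* 2 span -130 to -115, and in *Oas1a* 2 span -20 to -5. *Ifit1* and *Ifit3* each hold 2 separate copies, in *Ifit1* from -104 and -85 and in *Ifit3* from -156 and -122. *Ifit2*, the highest of the *Ifit* genes, held none in either of its 2 windows.

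Members with and without the core overlapped in level. Of the 14 with it, 10 were at 1 FPKM or more in all replicates, with a median of 4.67 FPKM, and of the 20 without it 16 were, with a median of 8.65 FPKM. The core of the interferon-γ activated site, TTCNNNGAA, was found in 8 of the 34 members (23.5%) and 9.55% of all genes in the table, and in *Irf1* it lay at -90 to -82. The core of the TFAP2 site, GCCNNNGGC, was found in 6 members (17.6%) and 18.5% of all genes, among them *H2-K1* and *H2-D1*. The E-box CACGTG, a site for MITF among other factors, was found in 1 member, *Erap1*, and in 8.09% of all genes. A match describes letters in the window, not binding. The absence of a match says only that these letters are not there.

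**Figure D3:**
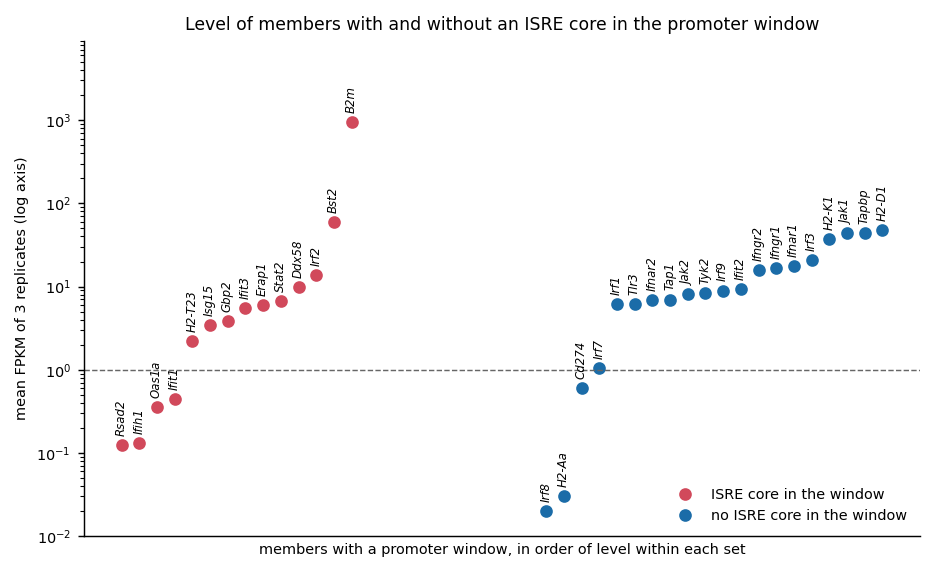
Mean FPKM on a log axis of the 34 members with a promoter window, in order of level, split by whether the window holds an ISRE core. The 14 members with the core range from 0.123 to 939 FPKM and the 20 without it from 0.02 to 47.9 FPKM.

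Sensors of foreign nucleic acid and of bacterial products were unequal. *Ddx58*, which encodes the RNA sensor RIG-I, had 9.55, 9.20 and 10.92 FPKM in replicates 1, 3 and 4, whereas *Ifih1*, which encodes the related sensor MDA5, had 0.16, 0.09 and 0.15 FPKM. *Ddx58* was 74.2 times higher on the means and higher in 3 of 3 replicates. *Tlr3*, the endosomal receptor for double-stranded RNA, had 6.34, 4.75 and 7.56 FPKM and *Tlr4*, the receptor for lipopolysaccharide, had 5.28, 4.34 and 5.56 FPKM. *Tlr3* was higher than *Tlr4* within each of 3 replicates, by 1.23 times on the means, although the ranges of the 2 genes overlapped.

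The order of the members by mean gave 42 pairs of neighbours. The ranges of 31 of these pairs overlapped, and in 19 pairs the first gene was higher in 3 of 3 replicates. Of 20 pairs of members compared within replicates, 16 pointed the same way in all 3. With 3 replicates the exact two-sided sign-flip permutation test cannot go below p = 0.25, and after Benjamini-Hochberg adjustment over the 20 pairs the values ran from 0.31 to 1. No pair could therefore pass a threshold of 0.05, and the ratios above are given with their values in each replicate.

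Other genes of the same pathways were examined as lists. Of 115 measured, 60 (52.2%) were at 1 FPKM or more in all replicates, compared with 44.1% of all genes. The counts of the single lists below are to be read beside the same share. None of the 10 interferon genes listed was above the value of 3 reads. At 0 in all replicates were 9 of 10 interferon genes, including *Ifnb1* and *Ifng*, compared with 31.4% of all genes. *Ifne* was at 0.02 FPKM in replicate 4 alone. Of 33 further interferon-induced genes, 32 were measured and 15 of them (46.9%) were at 1 FPKM or more in all replicates, with a median of 0.92 FPKM. The highest were *Ifitm2* (mean 222 FPKM), whose product blocks viral entry, its paralog *Ifitm3* (85.6 FPKM) and *Ifi30* (84.3 FPKM), which encodes a lysosomal thiol reductase. As among the interferon-induced members, the share was close to that of all genes and a few genes were high.

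The proteasome supplies the peptides for class I molecules, and interferon exchanges its catalytic subunits. *Psmb8*, an exchanged subunit, had 0.24, 0.33 and 0.25 FPKM, and its constitutive counterpart *Psmb5* was 133, 124 and 122 times higher in replicates 1, 3 and 4. Other exons on the same strand cover 11.8% of the exon bases of *Psmb5*, and reads there may not have been counted. *Psmb10* had 20.85, 23.43 and 18.53 FPKM and its counterpart *Psmb7* was 4.32, 3.91 and 4.63 times higher. *Psmb9* was listed at 0, but nearly all of its exon bases lie in a further gene model on the same strand, so this value cannot be read. The symbol has 2 gene identifiers, and the value under the other is not given here. The activator subunits *Psme1* and *Psme2* had means of 41.8 and 12.5 FPKM. The highest constitutive subunit was *Psmb6*, with a mean of 178 FPKM, followed by *Psmb7* (89.1 FPKM) and *Psmb5* (34.4 FPKM). The folding factors of class I molecules were abundant, with 963 FPKM for *Calr*, 305 FPKM for *Pdia3* and 144 FPKM for *Canx*.

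All 7 factors that bind the SXY module of MHC promoters, to which CIITA is recruited, were expressed, the highest being *Nfyc* (15.1 FPKM), *Nfya* (13.7 FPKM) and *Rfxank* (9.31 FPKM). Of 8 further class II pathway genes, 3 were at 1 FPKM or more in all replicates, the lysosomal protease gene *Ctsl* (113 FPKM) and the peptide exchange genes *H2-DMb1* (3.72 FPKM) and *H2-DMa* (1.20 FPKM). Of 12 measured genes of nucleic acid sensing and Toll-like receptor signalling, 8 were at 1 FPKM or more in all replicates. *Tmem173*, which encodes STING, was at 37.9 FPKM, *Mavs*, the adaptor of RIG-I, at 30.1 FPKM and *Ticam1*, the adaptor of TLR3, at 18.9 FPKM. The 4 that were not were *Dhx58*, *Tlr2*, *Tlr7* and *Tlr9*, which encode a sensor and receptors, not adaptors. Of 9 STAT and other IRF genes, 6 were at 1 FPKM or more in all replicates, led by *Stat6* (64.4 FPKM), *Stat3* (28.9 FPKM) and *Stat5a* (11.8 FPKM). Among 7 negative regulators 6 were, led by the phosphatase genes *Ptpn11* (32.5 FPKM), *Ptpn1* (19.5 FPKM) and *Ptpn6* (11.01 FPKM). Among 6 co-signalling ligands 3 were, *Cd276* (27.3 FPKM), *Tnfrsf14* (4.52 FPKM) and *Icosl* (1.56 FPKM).

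**Figure D4:**
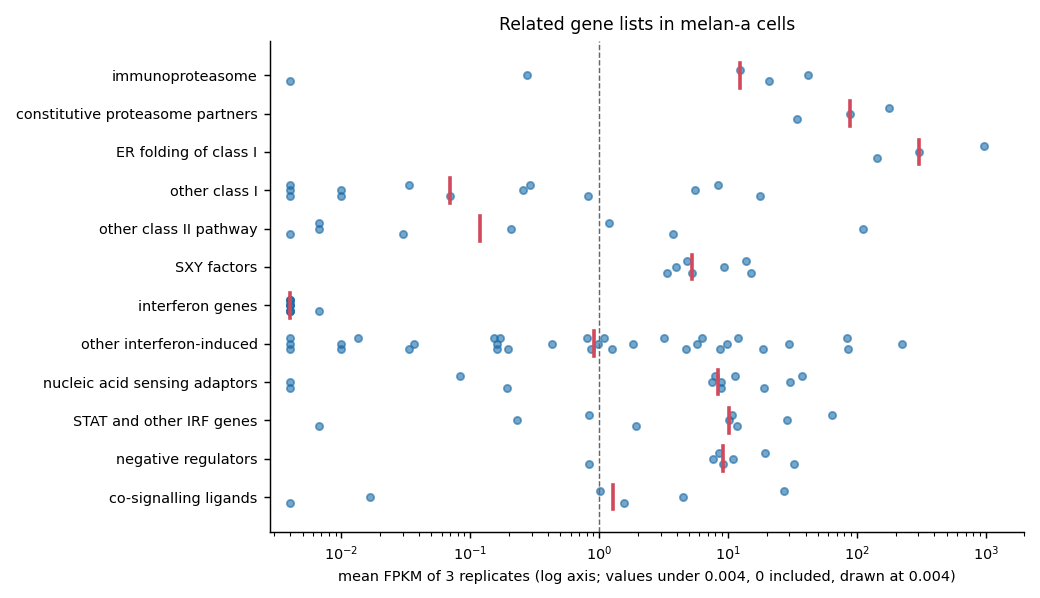
Mean FPKM on a log axis of each gene in 12 related lists, with the median of each list as a red bar and the dashed line at 1 FPKM. The class I folding factors lie highest, and the 10 interferon genes lie at or next to 0.

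Among the 29 members at 1 FPKM or more, replicates differed moderately. The median SD of log2(FPKM + 0.1) was 0.14, compared with 0.16 for the 10011 genes that passed the same filter, and the median coefficients of variation were 10.3% and 11.4%. The most stable were *Irf9* (1.44%), *H2-T23* (2.57%), *Jak1* (2.65%), *Ifnar1* (3.45%) and *Bst2* (3.77%). The most variable were *Ifit3* (30.9%), *Ifit2* (28.7%), *Erap1* (25.3%), *B2m* (25.1%) and *Tlr3* (22.7%), and all 5 of these were highest in replicate 4 and lowest in replicate 3. Of the 29 members, 16 (55.2%), 10 (34.5%) and 3 (10.3%) were highest in replicates 4, 3 and 1. For all genes passing the filter, the shares were 43.4%, 45.2% and 11.0%. Replicates 4, 3 and 1 held the lowest value of 9, 15 and 4 members, with 1 tie, against 45.6%, 42.4% and 11.5% of all genes. Without replicate 4 the median SD of the members was 0.089. When each library was instead rescaled to the same sum, 21 members were highest in replicate 4 and 5 in replicate 3.

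The direction of these differences moved with base composition. The 16 members highest in replicate 4 had exons of 39.3% to 52.4% GC with a median of 46.8%, and the 10 highest in replicate 3 had 48.3% to 57.02% with a median of 54.4%. Across the 29 members Spearman's rho between GC content and the log2 difference of replicates 3 and 4 was 0.86. Over 10007 genes that passed the filter and have a gene model, rho was 0.78. Both describe genes of the same 2 libraries, which are not independent replicates. With log2 values corrected for GC content in each replicate, the median SD fell to 0.10 for the members and 0.10 for all genes. The part of GC content in the values of single genes was not tested.

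**Figure D5:**
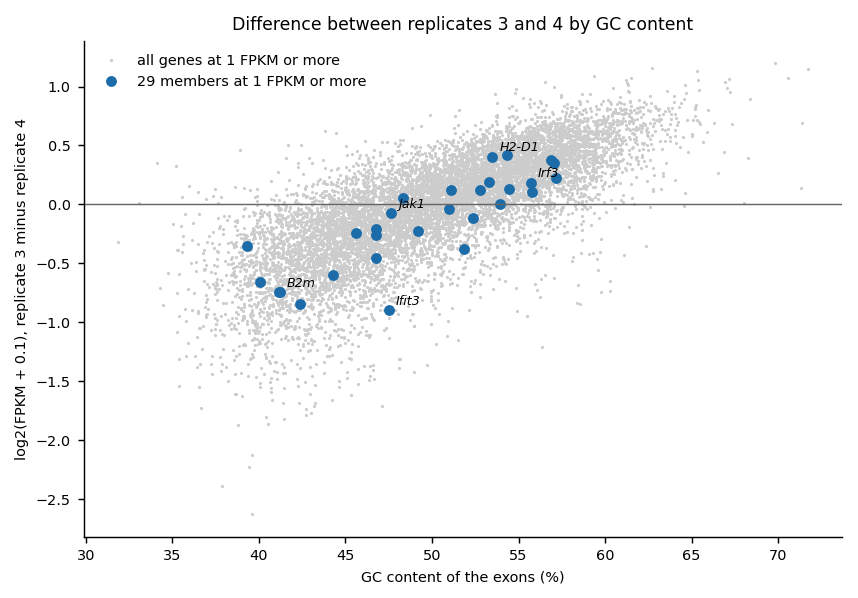
Difference of log2(FPKM + 0.1) between replicates 3 and 4 (vertical axis) against the GC content of the exons in percent, for all genes at 1 FPKM or more in all replicates (grey) and the 29 members that passed (blue). Members with low GC content, such as B2m and Ifit3, lie below 0 and those with high GC content, such as H2-D1, above it.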

How the data were processed

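RNA-seq of melan-a cells in 3 bioreplicates (1, 3 and 4) was analysed. The values are FPKM of 22698 Ensembl genes, which the authors deposited after TMM scaling between libraries. Per the study's methods, mRNA libraries were stranded, the 10 5′-most bases were trimmed, reads were aligned to mm9 with STAR 2.3.0e, rRNA reads were removed and reads were counted on Ensembl release 67 with htseq-count 0.5.3p3. The submitters' processing notes also name CASAVA 1.8.2, SAMtools and edgeR. The gene length behind FPKM was not given in the sources used here, so levels compared between genes depend on it.

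Symbols and gene models came from GENCODE on mm9 (Ensembl release 65), which lacks 374 of the genes. The members and lists were chosen with earlier results of these data known. Every member was named, with up to 3 of the highest genes of each pathway list and fewer of the marker lists for cell types other than melanocytes. Genes added to that (*Ifnb1*, *Ifng*, *Ifne*, *Ptprc*, *Psmb8*, *Psmb9*, *Dhx58*, *Tlr2*, *Tlr7* and *Tlr9*) were chosen after their values were seen. Motifs and printed windows were chosen likewise. Library sizes were found from genes with 1 transcript, whose low values must give whole reads (58, 83 and 35 genes, mean distance 0.034, 0.038 and 0.03 reads), and 3 reads were taken as the limit of detection, for counting error only. The method was tested on simulated data made with the same gene lengths, which cannot test those lengths. Log values used a pseudocount of 0.1. Ratios were tested with exact sign-flip permutation tests. The correction for GC used the median deviation in 20 bins. Calculations used Python 3.11.15 with pandas 2.3.3 and numpy 2.4.6, correlations scipy 1.17.1, adjustment statsmodels 0.14.6 and plots matplotlib 3.10.9.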

Additional observations from a re-analysis of the deposited data

How the results depend on the processing

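The number of members at 1 FPKM or more in all replicates was 29 and lay between 29 and 31 under thresholds of 0.5 and 2 FPKM, with the mean of the replicates, after rescaling to TPM (each replicate summing to 1000000) and with each replicate left out. The median level of 6.08 FPKM became 16.2 after rescaling, which changes the unit, and ranged from 5.395 to 6.35 FPKM with each replicate left out. The number of pairs of members with 1 direction in all replicates was 16 with pseudocounts of 1 and 0.01 and 16 to 18 with each replicate left out. Of the single ratios, *Cd74* over *H2-Aa* turned from 0.17 to -0.058 (log2) without replicate 1 (up to 0.31 with another left out) and *Ifngr1* over *Ifngr2* from 0.078 to -0.0085 without replicate 4 (up to 0.18 likewise). The median SD between replicates of the members was 0.14. With a replicate left out it ranged from 0.089 (without replicate 4) to 0.17 (without replicate 1), and it was 0.19 with no filter on low values, 0.18 after rescaling, 0.13 with a pseudocount of 1 or a filter of 5 FPKM and 0.10 after correction for GC content. Rescaling left 5 members highest in replicate 3, and after correction for GC content replicates 1, 3 and 4 were highest for 7, 6 and 16 members. The cause was not tested. No paired analysis was possible because there is 1 group. Depth limits *Ciita*, *H2-Aa* and *Cd74*, and rounding limits the calls of *H2-Aa*, *Irf8* and *Mx2* in replicate 3.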

Other observations

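*Cxcl10*, a chemokine gene of the interferon response that was neither a member nor among the highest of its list, had 8.46, 6.74 and 10.79 FPKM in replicates 1, 3 and 4, while *Cxcl9*, another interferon-induced chemokine gene, was listed at 0, 0.04 and 0 FPKM. *Irgm1*, an interferon-γ induced GTPase gene, had 18.95, 15.23 and 21.94 FPKM, and *Igtp*, of the same family, had 1.04, 0.95 and 0.93 FPKM. In both pairs the first gene was higher in 3 of 3 replicates. *Irf4*, a factor of lymphocytes and melanocytes, had 1.89, 1.71 and 2.15 FPKM, above *Irf7* in 3 of 3 replicates. These genes were chosen after their values were seen.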
